A study of Mus musculus with 6 samples.

Results

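The genes described here are 10 inflammatory signalling genes of mouse pancreatic islets: the chemokines Cxcl1, Cxcl2, Cxcl10 and Ccl2, the cytokines Il1b and Il6, the feedback inhibitors Nfkbia, Tnfaip3 and Socs3, and the adhesion molecule Icam1. They were taken by gene symbol from a list of genes driven by NF-kB, and all 10 listed genes were among the 18437 genes of the expression table. Islets are the endocrine cell clusters of the pancreas and hold the insulin-secreting beta cells. They came from male Sec16b-/- mice (knockout) and male Sec16b+/+ mice (wild type) at 30 weeks of age, with 3 RNA sequencing libraries per genotype and no treatment named in the labels. Sec16b encodes a protein of endoplasmic reticulum exit sites, where secretory cargo is loaded into transport vesicles, and the comparison asks which islet transcripts differ without it. How the knockout allele was made is not given in the sources used here, nor is whether the libraries stem from different animals, so p-values reflect the spread among the libraries, which may be technical.

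NF-kB is a family of dimeric transcription factors that inhibitor proteins hold in the cytoplasm. Signals from receptors such as those for interleukin-1 or tumour necrosis factor activate a kinase complex that has the inhibitor degraded, and the freed dimers then switch on chemokines, cytokines and adhesion molecules. Among the targets are the pathway's own brakes: Nfkbia encodes the inhibitor IkB-alpha, and Tnfaip3 encodes the ubiquitin-editing enzyme A20. Socs3 is the corresponding brake on cytokine receptors that signal through Stat3, the interleukin-6 receptor among them. In islets, beta cells respond to interleukin-1 beta, and resident macrophages are a known source of it.

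The DNA just upstream of the start sites was read first, since it is where NF-kB acts on many of its targets. In the 250 bases before each RefSeq start site (build GRCm38.p6), both strands were searched for 3 motifs: GGNNNTTCC, the core of a site for NF-kB, TTCNNNGAA, the core of a site for Stat factors, and GAAANNGAA, the core of an interferon response element. Of the 10 genes, 9 matched an entry in the promoter table, and Ccl2 was the exception. The NF-kB core was present in 7 of these 9 genes, namely Cxcl1, Cxcl2, Cxcl10, Il6, Nfkbia, Tnfaip3 and Icam1, while 15.7% of all 32851 upstream windows hold it. The Stat core was present in Socs3 and Icam1 (7.02% of all windows), and the interferon element in Cxcl10 and Nfkbia (7.13% of all windows). No matches overlapped. The genes were listed as driven by NF-kB, and the 3 motifs were kept from a wider set after their matches were seen. A high share of matches was therefore likely from the outset and is no test. A match describes letters and not a bound site, and binding was not measured here. The stretches that hold the matches are printed 5′ to 3′ along the gene's strand, with matches in capitals, because they show the NF-kB core of 7 genes, the Stat cores of Socs3 and Icam1 and the interferon element of Cxcl10 and Nfkbia.
Cxcl1: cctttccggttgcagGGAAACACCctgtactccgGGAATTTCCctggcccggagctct
Cxcl2: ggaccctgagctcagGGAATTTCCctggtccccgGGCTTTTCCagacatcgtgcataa
Cxcl10: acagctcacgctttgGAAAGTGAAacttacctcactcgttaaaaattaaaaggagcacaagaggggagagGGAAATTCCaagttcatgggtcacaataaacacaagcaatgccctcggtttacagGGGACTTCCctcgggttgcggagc
Il6: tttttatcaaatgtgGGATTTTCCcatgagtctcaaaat
Nfkbia: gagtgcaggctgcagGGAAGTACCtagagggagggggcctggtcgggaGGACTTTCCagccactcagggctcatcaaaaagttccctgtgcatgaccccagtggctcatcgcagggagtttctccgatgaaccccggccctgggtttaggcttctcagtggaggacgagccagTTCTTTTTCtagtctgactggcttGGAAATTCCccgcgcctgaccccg
Tnfaip3: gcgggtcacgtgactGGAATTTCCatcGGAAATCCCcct
Socs3: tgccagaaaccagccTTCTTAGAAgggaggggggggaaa
Icam1: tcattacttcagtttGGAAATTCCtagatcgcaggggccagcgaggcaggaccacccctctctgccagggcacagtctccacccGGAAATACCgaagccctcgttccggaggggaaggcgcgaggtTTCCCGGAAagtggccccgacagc

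These stretches lie at chr5:90891141-90891198 (plus strand) for Cxcl1, chr5:90903788-90903845 (plus strand) for Cxcl2, chr5:92348969-92349117 (minus strand) for Cxcl10 and chr5:30013056-30013094 (plus strand) for Il6. The others lie at chr12:55492653-55492873 (minus strand) for Nfkbia, chr10:19015411-19015449 (minus strand) for Tnfaip3, chr11:117969497-117969535 (minus strand) for Socs3 and chr9:21015772-21015921 (plus strand) for Icam1. Cxcl1 and Cxcl2, neighbouring chemokine genes, each hold a pair of cores within 96 bases of the start site, and the letters GGAATTTCC occur in both. The same letters stand 24 to 16 bases upstream of the first Tnfaip3 start site in the table, and GGAAATTCC occurs in Cxcl10, Nfkbia and Icam1. Tnfaip3 has a further start site in the table, with a core 89 to 81 bases upstream of it.

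The 6 libraries held between 22071895 and 26806787 reads, and 16042 genes passed a filter on low values, all 10 inflammatory genes included. Values are normalized read counts, the authors' gene counts divided by a size factor per library. Sec16b itself was at 553, 433 and 749.5 in knockout replicates 1, 2 and 3, against 1655, 773 and 1786 in wild type replicates 1, 2 and 3. Its transcript was therefore still present in all knockout libraries, with a log2 fold change of −1.22 (SE 0.35). All 3 knockout values lay below all 3 wild type values. In limma Sec16b had an unadjusted p of 0.0108 and an adjusted p of 0.993, above the threshold. Of 11 neutrophil markers, 10 were not in the table. The table holds only genes above 0 in every library, so a marker silent in any library would be missing from it. Csf3r was at 30.7, 12.2 and 9.97 in knockout replicates 1, 2 and 3. In wild type replicates 1, 2 and 3 it was at 12.03, 10.7 and 8.79. Beta cell genes were abundant in every library, led by Ins2, Ins1 and Iapp.

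All 10 inflammatory genes had a higher mean log2 level in knockout than in wild type libraries, but none passed the test over all genes. Fold changes ran from 0.09 (Ccl2) to 2.01 (Cxcl1) on the log2(value + 1) scale, knockout over wild type, with a median of 0.94 against −0.0030 over all genes tested. A log2 fold change above 0 was found in 49.4% of all genes. Limma called 0 of the 10 at an adjusted p under 0.05 and 0 of 16042 genes (0%), with adjusted p between 0.993 and 0.996 for the 10. At an unadjusted p under 0.05 it found 2 of the 10, Socs3 and Il1b, and 276 genes (1.72%) that were higher in knockout among all tested. In those same 2 genes all 3 knockout values lay above all 3 wild type values, a pattern seen in 618 genes (3.85%). The quasi-likelihood test of edgeR also called 0 of the 10 and 0 of all genes, with 509 genes at an unadjusted p under 0.05. The Wald test of DESeq2 called 13 genes, none of them among the 10, and gave Socs3 the lowest adjusted p of the 10 (0.533).

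**Figure D1:**
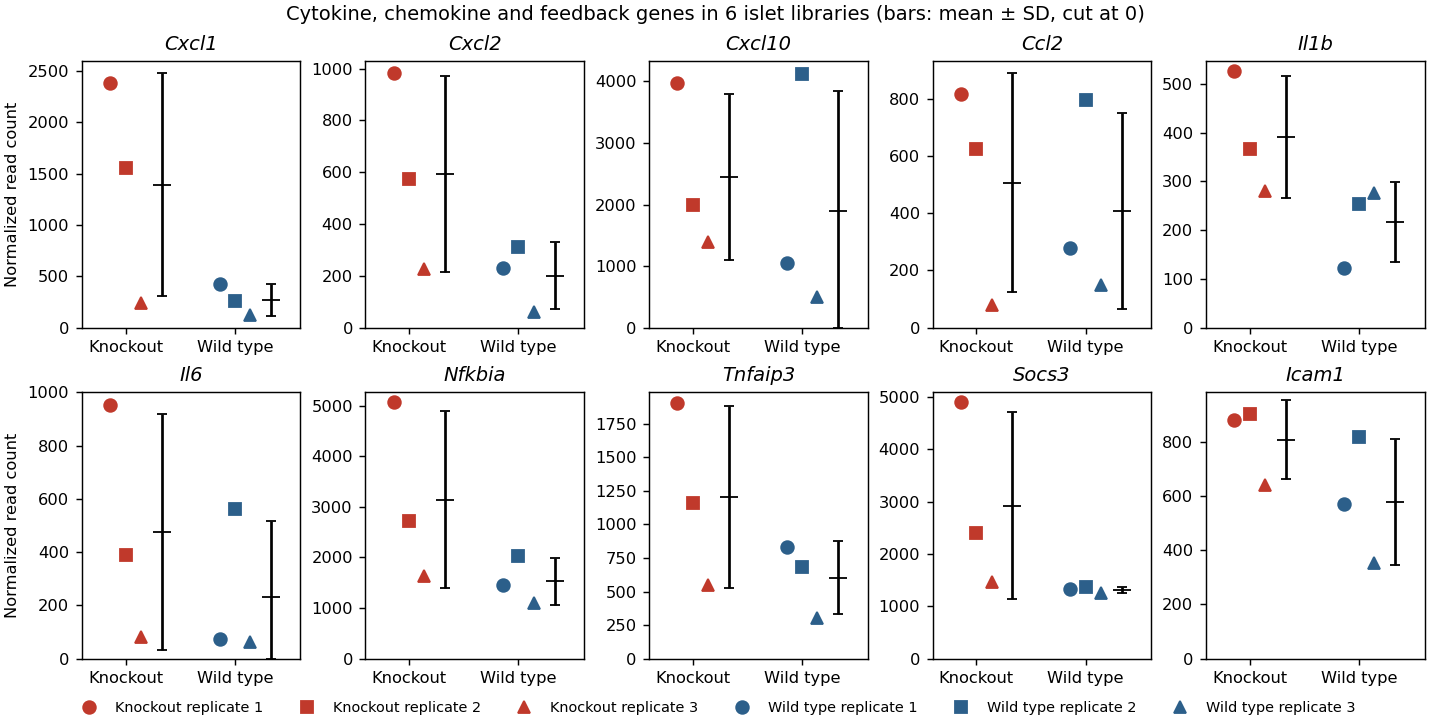
Normalized read count of the 10 genes in the 3 knockout libraries (red, left) and the 3 wild type libraries (blue, right), with marker shapes for replicates 1 to 3 and bars for mean ± SD. Knockout replicate 1 is the highest library in 8 of the 10 genes, and the groups overlap in all but Il1b and Socs3.

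The chemokines Cxcl1 and Cxcl2, both attractants of neutrophils, had the largest fold changes of the 10. Cxcl1 was at 2386, 1559.7 and 236 normalized read counts in knockout replicates 1, 2 and 3, against 426, 262 and 119.6 in wild type replicates 1, 2 and 3. Knockout replicates 1 and 2 thus lay far above every wild type library, while knockout replicate 3 lay inside the wild type range. The means were 1394 ± 1085 in knockout and 269 ± 153 in wild type (SD, n = 3 each), a log2 fold change of 2.01 (SE 0.89, 95% interval −0.10 to 4.12) with an unadjusted p of 0.0589 in limma. Cxcl2 was at 983, 573 and 226 in knockout replicates 1, 2 and 3, against 231, 313 and 59.8 in wild type replicates 1, 2 and 3. Its order of libraries was like that of Cxcl1, with wild type replicate 3 lowest. The Cxcl2 log2 fold change was 1.62 (SE 0.74, 95% interval −0.14 to 3.38). Exact two-sided permutation tests gave p = 0.3 for each of these chemokines, where 3 libraries against 3 cannot go below 0.1.

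Cxcl10, an interferon-inducible attractant of activated T cells, and Ccl2, which recruits monocytes, had a different order of libraries. Cxcl10 was at 3973, 1995 and 1394 in knockout replicates 1, 2 and 3, against 1055, 4125 and 492 in wild type replicates 1, 2 and 3. The highest value of the 6 was in wild type replicate 2, and it exceeded every knockout value. Ccl2 was at 817, 626 and 77.7 in knockout replicates 1, 2 and 3, against 279, 797 and 148 in wild type replicates 1, 2 and 3. For Ccl2 the highest and the lowest library were both knockout libraries, 10.5-fold apart. Log2 fold changes were 0.79 (SE 0.77, 95% interval −1.04 to 2.61) for Cxcl10 and 0.09 (SE 0.99, 95% interval −2.25 to 2.44) for Ccl2. These intervals hold differences in either direction, so the data do not fix the direction for either gene.

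Il1b, the interleukin-1 beta precursor gene, was one of the 2 genes whose genotypes did not overlap. Its values were 526, 366 and 280.1 in knockout replicates 1, 2 and 3, against 123, 254 and 275 in wild type replicates 1, 2 and 3. Knockout replicate 3 and wild type replicate 3 differed by less than any 2 libraries of the knockout group. The means were 391 ± 125 in knockout and 217 ± 82.2 in wild type (SD, n = 3 each), with a log2 fold change of 0.88 (SE 0.37, 95% interval 0.01 to 1.75) and an unadjusted p of 0.0478 in limma. The exact permutation p was 0.1, the smallest this design can give. Il6, the interleukin-6 gene, was at 953, 389 and 80.7 in knockout replicates 1, 2 and 3, against 75.2, 561 and 62.4 in wild type replicates 1, 2 and 3. Each genotype held both high and low libraries for Il6, 11.8-fold apart within knockout and 8.98-fold apart within wild type. Its log2 fold change of 1.16 had an SE of 1.11 and a 95% interval of −1.48 to 3.81.

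Among the feedback inhibitors, Socs3 had the most even wild type values of the 10 genes. It was at 4908, 2395 and 1459 in knockout replicates 1, 2 and 3, against 1328, 1359 and 1249 in wild type replicates 1, 2 and 3. Every knockout value lay above every wild type value, and knockout replicate 3 was at 1.11-fold the wild type mean. The means were 2921 ± 1783 in knockout and 1312 ± 56.7 in wild type (SD, n = 3 each), with a log2 fold change of 0.98 (SE 0.40, 95% interval 0.03 to 1.92). Its unadjusted p in limma was 0.0441, the lowest of the 10 genes, and the exact permutation p was 0.1. Nfkbia was at 5072, 2714 and 1642 in knockout replicates 1, 2 and 3, against 1464, 2025 and 1092 in wild type replicates 1, 2 and 3. Knockout replicate 3 lay between wild type values, and the Nfkbia log2 fold change was 0.93 (SE 0.42, 95% interval −0.05 to 1.92). Tnfaip3 was at 1908, 1162 and 549 in knockout replicates 1, 2 and 3, against 831, 681 and 302 in wild type replicates 1, 2 and 3. Here knockout replicate 3 was below wild type replicates 1 and 2, and the Tnfaip3 log2 fold change was 0.94 (SE 0.53, 95% interval −0.32 to 2.21).

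Icam1, the endothelial and epithelial ligand of leukocyte integrins, had the smallest ratio of highest to lowest knockout value of the 10 genes, 1.41-fold. It was at 883, 903 and 641 in knockout replicates 1, 2 and 3, against 570.4, 818 and 353 in wild type replicates 1, 2 and 3. Wild type replicate 2 lay inside the knockout range. The means were 809 ± 146 in knockout and 580.4 ± 233 in wild type (SD, n = 3 each), with a log2 fold change of 0.54 (SE 0.31, 95% interval −0.19 to 1.28).

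The same libraries tended to be high or low in many of the 10 genes. Knockout replicate 1 was the highest library in 8 of the 10 genes, as it was in 20.5% of all genes tested, and wild type replicate 3 was the lowest in 8 of the 10, as it was in 15.9% of all genes. Knockout replicate 1 lay above every wild type library in 9 genes (25.9% of all genes), knockout replicate 2 in 7 (22% of all genes) and knockout replicate 3 in 2 (22.8% of all genes). The mean log2 level of the 10 genes was 10.70, 9.98 and 8.66 in knockout replicates 1, 2 and 3, against 8.77, 9.56 and 8.02 in wild type replicates 1, 2 and 3. Knockout replicate 3 was therefore below wild type replicates 1 and 2 by this measure. In knockout replicate 3, values were above the wild type mean in 5 of the 10 genes. Without knockout replicate 1 the median log2 fold change of the 10 was 0.51, with 9 of 10 above 0. Leaving out both knockout replicate 1 and wild type replicate 3, an alternative chosen after seeing the data, gave 0.22, with 7 of 10 above 0.

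**Figure D2:**
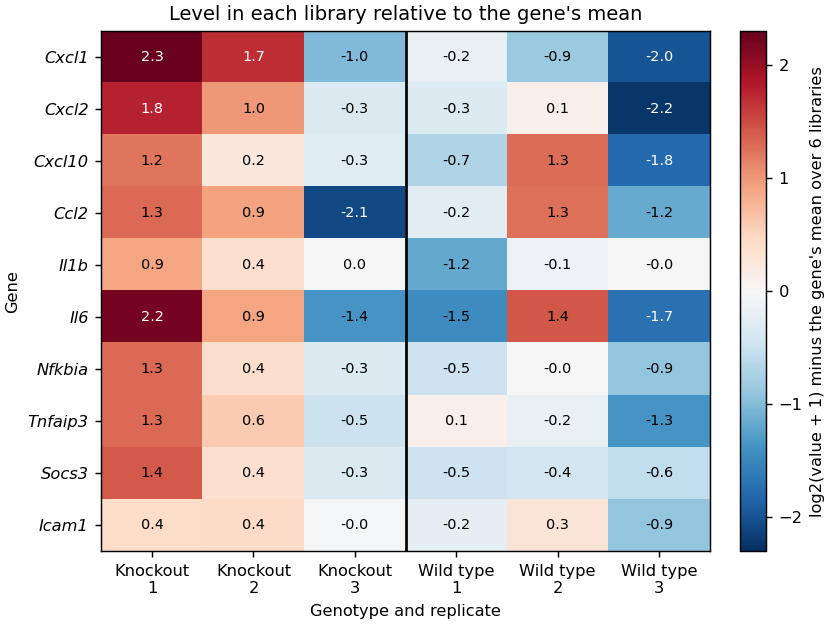
Level of each gene (rows) in each library (columns, knockout left of the line and wild type right of it), as log2(value + 1) minus the gene's mean over the 6 libraries. Red in knockout replicate 1 and blue in wild type replicate 3 run down nearly all genes, while wild type replicate 2 is red for Cxcl10, Ccl2 and Il6.

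Single libraries moved the fold changes of the chemokines and of Il6 most. For Cxcl1 the log2 fold change was 1.35 when knockout replicate 1 was left out and 3.02 when knockout replicate 3 was, and for Cxcl2 it was 0.90 without wild type replicate 3. Cxcl10 had 0.09 without wild type replicate 3, and 1.63 when wild type replicate 2 was left out. For Ccl2 the direction turned in 4 of the 6 such fits, to −0.53 or −0.34 when knockout replicate 1 or 2 was left out and to −0.0059 or −0.46 when wild type replicate 1 or 3 was. Il6 had 0.36 without knockout replicate 1, but 2.17 when wild type replicate 2 was left out. Leaving out knockout replicate 1 gave 0.51 for Socs3 and 0.51 for Nfkbia, and leaving out knockout replicate 3 gave 1.39 for Socs3 and 1.33 for Nfkbia. Tnfaip3 had 0.51 and Icam1 0.23 when wild type replicate 3 was left out, and Tnfaip3 had 0.53 without knockout replicate 1. Il1b had 0.51 without wild type replicate 1, its lowest value in these fits.

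**Figure D3:**
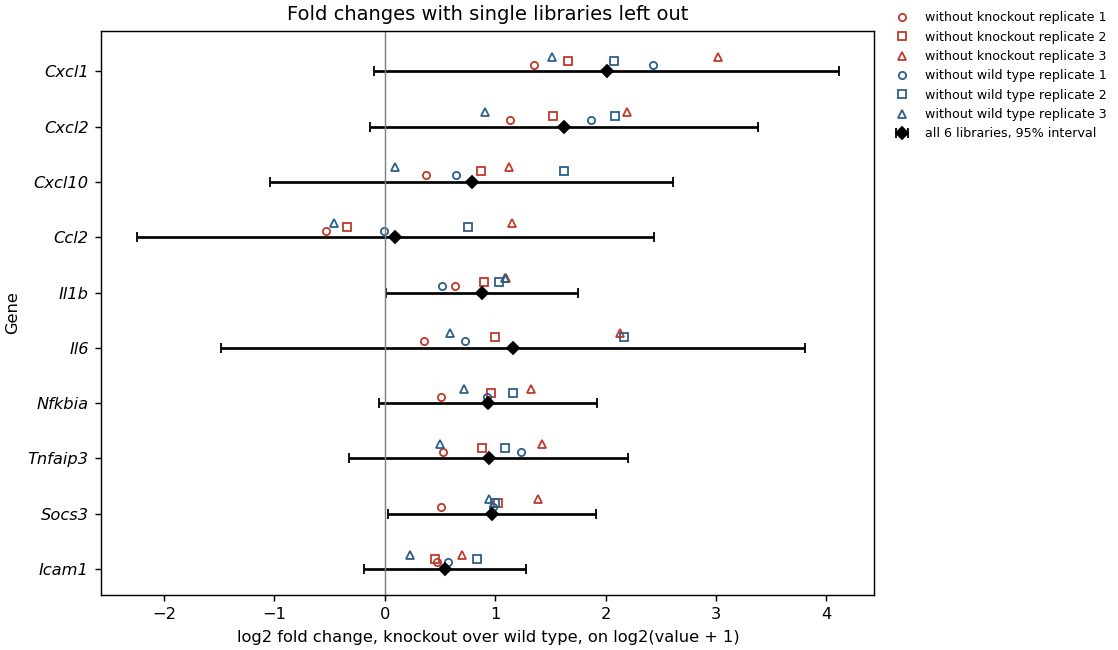
Log2 fold change of each gene, knockout over wild type (diamonds, bars for the 95% interval from limma with all 6 libraries), and the same with each library left out (open markers, red for knockout and blue for wild type). Only the intervals of Il1b and Socs3 lie above 0 with all libraries, and the open markers of Ccl2 fall on both sides of 0.

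Per kilobase of exon (GENCODE M21 exons), Nfkbia was the most abundant of the 10, at 1952 ± 1090.2 normalized reads per kilobase in knockout and 948 ± 292 in wild type (SD, n = 3 each). Cxcl10 and Socs3 followed in both genotypes, Cxcl10 at 1089.8 ± 599 in knockout and 839.5 ± 868 in wild type, and Socs3 at 1010.3 ± 617 in knockout and 454 ± 19.6 in wild type (SD, n = 3 each). Cxcl1 was at 744 ± 578 per kilobase in knockout and 144 ± 81.8 in wild type, and Ccl2 at 445 ± 337 in knockout and 358 ± 302 in wild type. The remaining genes, Cxcl2, Il1b, Il6, Icam1 and Tnfaip3, averaged between 167 and 287 per kilobase in knockout and between 83.6 and 133 in wild type. Tnfaip3 was the lowest of the 10 in both. In this order of knockout levels, neighbouring genes differed by less than the larger SD of the pair throughout.

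The genes around the 10 in the pathway were counted in lists chosen with earlier results of these data known. Their counts are therefore a description and not a test. Limma likewise called 0 genes in these lists. Of 35 other cytokine and chemokine genes tested, 32 had a log2 fold change above 0, with a median of 0.43. With knockout replicate 1 or wild type replicate 3 left out that median was 0.17 or 0.25, and with knockout replicate 3 or wild type replicate 2 left out it was 0.68 or 0.75. The smallest unadjusted p among them belonged to Ccl27a (0.58, SE 0.27) and Ccl28 (0.59, SE 0.31), attractants of skin and mucosal lymphocytes, and Cxcl13, a B cell attractant (2.17, SE 1.15). Ccl27a was at 58.9, 82.4 and 81.7 in knockout replicates 1, 2 and 3. In wild type replicates 1, 2 and 3 it was at 40.1, 56.2 and 51.9. All its knockout values lay above all wild type values, in 1 of the 35 genes against 3.85% of all genes tested. Cxcl5, an attractant related to Cxcl1 and named here after its values were seen, was at 1604, 939.6 and 323 in knockout replicates 1, 2 and 3, against 637, 519 and 37.8 in wild type replicates 1, 2 and 3. Of 22 other NF-kB target genes tested, 20 were above 0, with a median of 0.62. Leaving out knockout replicate 1 gave a median of 0.20, wild type replicate 3 gave 0.23 and knockout replicate 3 gave 1.01. Gadd45b, a stress response gene, had 0.84 (SE 0.41), the transcription factor gene Cebpd 0.79 (SE 0.40) and complement C3 1.33 (SE 0.69).

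Medians nearer to 0 were found for the signalling machinery. All 5 NF-kB subunit genes were above 0, with a median of 0.31, which came to 0.075, 0.19 or 0.53 when knockout replicate 1, 2 or 3 was left out and to 0.16 when wild type replicate 3 was. Rela had 0.32 (SE 0.22), Rel 0.64 (SE 0.55) and Relb 0.31 (SE 0.30). Of 28 adapter and kinase genes, 19 were above 0, with a median of 0.05 (0.021 to 0.094 with single libraries left out), and Stat3, Rnf31 (a ubiquitin ligase subunit) and Irak2 (a kinase below the interleukin-1 receptor) had 0.32 (SE 0.17), 0.24 (SE 0.15) and 0.27 (SE 0.17). Of 28 receptor genes, 18 were above 0, with a median of 0.14. The direction of this median depended on the libraries and covariates, since it was −0.084 when knockout replicate 1 was left out, −0.0070 when wild type replicate 3 was, −0.099 with the acinar level as a covariate, −0.073 with the lymphocyte level and −0.051 with the macrophage level, but 0.42 with knockout replicate 3 left out. Ackr3, a scavenging chemokine receptor, had 0.59 (SE 0.22), Il1rap, the interleukin-1 receptor's partner chain, 0.33 (SE 0.18), and Osmr, the oncostatin M receptor, 0.67 (SE 0.42). The receptors of the 2 cytokines, named here after their values were seen, had log2 fold changes of 0.37 (SE 0.32) for Il1r1, 0.15 (SE 0.20) for Il6ra and −0.08 (SE 0.13) for Il6st. Of 24 other inhibitor genes, 17 were above 0, with a median of 0.11 (0.052 or 0.24 when knockout replicate 1 or 3 was left out). Tnip2, a partner of A20, had 0.41 (SE 0.17), with values of 809.8, 593 and 554 in knockout replicates 1, 2 and 3, against 460.1, 466 and 525 in wild type replicates 1, 2 and 3. Nfkbiz and Nfkbie, which encode further IkB proteins, had 0.23 (SE 0.11) and 0.62 (SE 0.31). Of 12 adhesion genes, 9 were above 0, with a median of 0.25. This median was −0.029 without either knockout replicate 1 or wild type replicate 3, −0.36 with the lymphocyte covariate and 0.67 without knockout replicate 3. They included Madcam1 (−0.91, SE 0.52) and Vcam1 (0.67, SE 0.60), which encode endothelial ligands of leukocyte integrins.

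Markers of other cells and of general stress also differed between the libraries. In bulk tissue, a change in the number of cells of a type and a change in RNA per cell cannot be told apart. The 16 immediate early genes, which respond quickly to many stimuli, were all above 0, with a median of 0.73, or 0.44 when knockout replicate 1 was left out and 1.18 when knockout replicate 3 was. At an unadjusted p under 0.05 limma found 5 of the 16, while 1.72% of all genes tested were higher in knockout at that p. In the same 5 genes all knockout values lay above all wild type values, a pattern seen in 3.85% of all genes. By either count it was 2 of the 10 inflammatory genes. The mean log2 level of the 16 immediate early genes was 11.14, 10.65 and 9.72 in knockout replicates 1, 2 and 3. In wild type replicates 1, 2 and 3 it was 10.04, 9.50 and 9.45. The 18 interferon response genes were all above 0 as well, with a median of 0.40 and mean levels of 11.39, 10.09 and 9.88 in knockout replicates 1, 2 and 3, against 9.86, 10.90 and 9.20 in wild type replicates 1, 2 and 3. Knockout replicate 1 and wild type replicate 2 were the highest libraries of this list, as they were for Cxcl10. The direction of its median turned with single libraries, to −0.063 when knockout replicate 1 was left out and −0.0040 when wild type replicate 3 was. It was 0.61 or 0.63 when knockout replicate 2 or 3 was left out, and 0.77 when wild type replicate 2 was.

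Acinar enzyme genes, which mark exocrine tissue outside the islet, were all present (16 of 16). Ctrb1, Cela2a and Pnlip were the most abundant of them. The summed value of the list ran from 146691 to 4091650 in knockout and from 225832 to 1120890 in wild type, with knockout replicate 1 highest and knockout replicate 3 lowest. All 16 had a log2 fold change above 0, with a median of 0.86, against 0.94 for the 10 inflammatory genes. With edgeR, DESeq2 or array weights the acinar median was 1.52, 1.52 or 1.41. That of the 10 inflammatory genes was 1.02, 1.02 or 0.91 in these fits. The acinar median was −0.17, 0.52 or 2.21 when knockout replicate 1, 2 or 3 was left out, and 1.36 or 0.16 when wild type replicate 1 or 2 was. Of 11 lymphocyte markers 7 were in the table, led by Ighm, Igkc and Cd79a, with summed values from 7145 to 143995 in knockout and from 242 to 21950.5 in wild type. All 7 had a log2 fold change above 0, with a median of 2.31 that was 5.02, 1.17 or 1.18 when wild type replicate 1, 2 or 3 was left out. Knockout replicate 1 had the highest lymphocyte sum, with Ighm at 103162, against 8441 in wild type replicate 1, the highest wild type library. The mean log2 level of the lymphocyte list was 10.14 in knockout replicate 1 and 10.28 in wild type replicate 1. Macrophage markers (13 of 14 in the table, Lyz2 and Cd14 among the most abundant) summed to between 4169 and 9051 in knockout and between 5532 and 7265 in wild type. Endothelial markers (12 of 12, led by Plvap, Kdr and Flt1) summed to between 13164 and 15382 in knockout and between 10561 and 13845 in wild type. Stellate and fibroblast markers (10 of 10, led by Rgs5, Dcn and Col1a2) summed to between 2746 and 4476 in knockout and between 2242 and 6723 in wild type, and duct markers (8 of 8, led by Krt7, Spp1 and Krt19) to between 11510.0 and 16415 in knockout and between 11979 and 16206 in wild type. Of 5 mesothelial markers only Msln was in the table, at 229 to 1167 over all libraries. The 10 beta cell genes summed to between 2383080 and 3258240 in knockout and between 2601540 and 3558070 in wild type. Log2 fold changes above 0 were found in 10 of 13 macrophage genes (median 0.30, but −0.012 without knockout replicate 1), 11 of 12 endothelial genes (median 0.31), 6 of 10 stellate and fibroblast genes (median 0.16, but −0.077 without wild type replicate 1), 6 of 8 duct genes (median 0.47) and 1 of 10 beta cell genes (median −0.13). The 3 macrophage genes below 0 were Csf1r (−0.64, SE 0.41), Cd68 (−0.21, SE 0.34) and Adgre1 (−0.10, SE 0.32). They are named here after their values were seen. With the acinar, lymphocyte or macrophage level as a covariate, the median log2 fold change of the 10 inflammatory genes was 0.75, 0.82 or 0.71. In each of these fits 9 of 10 were above 0. With 6 libraries and 1 covariate at a time, such fits cannot separate these cells from genotype. The part of these cells in the result was therefore not tested.

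**Figure D4:**
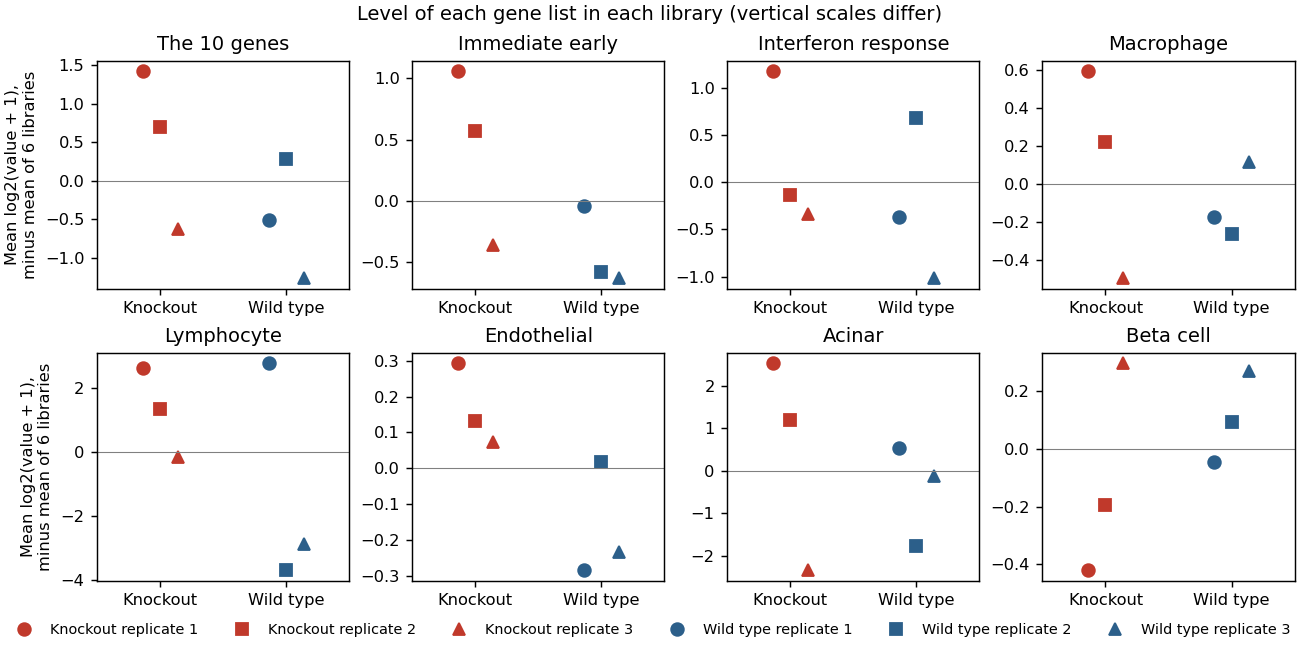
Mean log2(value + 1) of each gene list in the 3 knockout libraries (red, left) and the 3 wild type libraries (blue, right), minus the list's mean over the 6 libraries. The 10 genes, the immediate early genes and the acinar genes are highest in knockout replicate 1, and the acinar and macrophage genes are lowest in knockout replicate 3.

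The genes whose profile over the 6 libraries was most like the mean profile of the 10 were Ifi207 (Pearson r = 0.995), an interferon-inducible gene, Mctp2 (0.993), Cachd1 (0.992), Il11 (0.990), a cytokine of the interleukin-6 family, and Fbxw17 (0.990). These r describe 6 libraries and 2 genotypes and are the highest of many genes ranked, so they carry no test. Il11 was at 649, 281 and 67.8 in knockout replicates 1, 2 and 3, against 85.2, 256 and 44.8 in wild type replicates 1, 2 and 3. For Cxcl1 alone the most alike genes were complement C3 (0.996), Lag3 (0.986), an inhibitory receptor of T cells, and Zbtb2 (0.984). C3 was at 7892, 5460.4 and 1287 in knockout replicates 1, 2 and 3, against 2257.5, 1759 and 874 in wild type replicates 1, 2 and 3. Il1b was most alike to Sox17 (0.992), a transcription factor of endothelium, Rapgef4os3 (0.975) and Zfp788 (0.969). Socs3 was most alike to the ribosomal protein genes Rps28 (0.995) and Rps21 (0.994) and to Csrnp1 (0.993). Icam1 was most alike to Gnai2 (0.994), a G protein subunit, the cytokine Lif (0.991) and Snapc1 (0.981). Among the 10 themselves, r over the 6 libraries ran from 0.346 between Ccl2 and Il1b to 0.967 between Cxcl2 and Tnfaip3. The 6 lowest of these values all involved Il1b.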

How the data were processed

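RNA from frozen islets was sequenced in 6 libraries, and the submitters' processing notes name HISAT2 as aligner. The sources used here do not give its version, the counter, the strand setting or the build, so overlapping genes may share reads. The signal values deposited by the authors behave as size-factor-normalized gene counts, since 100% were whole multiples of one step per library within 0.01 reads. The table holds 18437 genes, each above 0 in every library, so genes silent in a library were not analysed here.

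The 16042 genes that reached 10 in 3 or more libraries were put on a log2(value + 1) scale, on which the fold change of a low gene is understated. The test of knockout minus wild type was limma 3.58.1 (R 4.3.3) with a trended variance, two-sided, with Benjamini-Hochberg adjustment at 0.05. EdgeR 4.0.16 and DESeq2 1.42.0 on the recovered reads were alternatives. The fit was tested on simulated counts.

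The 10 genes and the lists were chosen with earlier results of these data known. Beyond them and Sec16b, the text names the 3 smallest p of each pathway list, the 3 most abundant markers of each cell list and the genes of most alike profile, without predicted genes. Of the genes this rule takes, 2 are not reported here. Promoter sequences are from RefSeq (GRCm38.p6), and the 3 motifs were kept from a wider set after their matches were seen.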

Additional observations from a re-analysis of the deposited data

How the results depend on the processing

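In 21 alternatives to the fit with all 6 libraries, limma, edgeR and DESeq2 called 0 of the 10 inflammatory genes. The count of all genes called stayed at 0, except with the DESeq2 Wald test, which called 13 genes and left 4384 without an adjusted p. The cause was not tested. The median log2 fold change of the 10 was between 0.71 and 1.02 in the alternatives that kept all libraries and between 0.51 (without knockout replicate 1) and 1.36 (without knockout replicate 3) with single libraries left out. The number of the 10 above 0 was 9 or 10 in all of these, and 7 without both knockout replicate 1 and wild type replicate 3. Deviations of same-numbered libraries of the 2 genotypes from their group means had r = 0.430, 0.0037 and 0.365. Between libraries of different number r ran from −0.413 to 0.199. Knockout replicate 2 had r near 0 with all 3 wild type libraries (0.034, 0.0037 and −0.053). The labels number the replicates but name no pairs, and these r do not settle whether the numbers are pairs. The main fit left pairing out. With a replicate block the median was 0.94 and 0 genes were called, with 864 at an unadjusted p under 0.05 in place of 494. The count of the 10 genes at an unadjusted p under 0.05 was 6 with the block, with array weights, with DESeq2 and without knockout replicate 3, in place of 2. Among all genes tested, 864, 1045, 576 and 1127 reached that p in these settings, in this order, in place of 494. The count of the 10 was 0 with no mean-variance trend, without knockout replicate 1 or 2, and without both knockout replicate 1 and wild type replicate 3. There, 559, 335, 378 and 406 of all genes reached that p, in this order. Without both knockout replicate 1 and wild type replicate 3, list medians were −0.095 for the other cytokines and chemokines, −0.016 for the other NF-kB targets and −0.48 for the interferon response genes.

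Of the 10 genes, Ccl2, Cxcl10 and Il6 turned direction in some alternative. Ccl2 was at −0.31 with the acinar covariate, −0.13 with the lymphocyte covariate and −0.38 with the macrophage covariate, the last chosen after seeing the data. With single libraries left out it ran from −0.53 to 1.16. Without both knockout replicate 1 and wild type replicate 3, Ccl2 was at −1.09, Cxcl10 at −0.32 and Il6 at −0.21. The other 7 genes stayed above 0 in all 21 alternatives, Cxcl1 between 0.86 and 3.02, Cxcl2 between 0.42 and 2.20, Il1b between 0.51 and 1.15, Socs3 between 0.48 and 1.39, Nfkbia between 0.29 and 1.33, Icam1 between 0.15 and 0.83 and Tnfaip3 between 0.087 and 1.42. The lowest adjusted p of any of the 10 in any alternative was 0.533, for Socs3 in DESeq2. The lowest of their 60 values was 59.8. Counting error was small beside the spread between libraries for most of the 10 genes, but not for Socs3 in wild type, where the SD was 56.7 on a mean of 1312.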
